A study of Homo sapiens with 6 samples.

Results

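The 8 genes RB1, CDKN2A, CDKN2B, SMAD4, SMAD2, ARID1A, NF1 and STK11, tumour suppressors that are often lost in epithelial cancers, were examined in Hi-C maps of 4 cancer cell lines. Each gene was represented by the 40-kb bins of the hg19 bin table that it overlapped and by 1 Mb on either side, which gave 31 gene bins and 381 window bins in 7 windows, of 72036 autosomal bins and 19222 autosomal protein-coding genes in all. CDKN2A and CDKN2B are neighbours and shared 1 window. Hi-C joins pieces of DNA that lie close together in the nucleus and sequences them as read pairs, so the number of pairs that reach a bin also follows the number of copies of that bin in the cells.

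SW480 and SNU-C1 are colon cancer lines, HCC1954 is a breast cancer line and OE33 is an esophageal adenocarcinoma line. The labels name no treatment, and chromatin was cut with MboI, which recognises GATC. SW480 had 2 replicate maps and a pooled map, and each of the other lines had 1 map, which the labels do not describe as pooled or single (the methods speak of duplicates), so the spread between replicates is known for SW480 only and a difference between lines has no test here. Pairs between chromosomes were held by the maps of OE33, HCC1954 and SNU-C1, whereas pairs between chromosomes made up 0.217% of the read pairs of SW480, which was left out of those comparisons. A line carries its own background as a culture grown from 1 tumour, and no map of normal tissue was analysed here, so each line could only be set against the others. The depth on single chromosomes was 133376390 read pairs in SW480 (65986605 and 67369085 in its replicates), 89418425 in OE33, 93501178 in HCC1954 and 115014329 in SNU-C1.

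RB1 encodes the retinoblastoma protein, which holds cells before S phase by binding E2F factors. CDKN2A and CDKN2B encode inhibitors of the kinases CDK4 and CDK6, which inactivate that protein, and CDKN2A also encodes ARF, an inhibitor of MDM2 and thereby a guardian of p53. SMAD2 is a receptor-regulated transducer of TGF-beta signals and SMAD4 its common partner. ARID1A is a subunit of SWI/SNF chromatin remodellers, NF1 encodes neurofibromin, a GTPase activating protein for RAS, and STK11 encodes LKB1, the kinase that activates AMPK. Deletion at these loci can be larger or smaller than a 40-kb bin, and a rearrangement may leave the copy number as it was and change only the contacts.

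The stretches before 3 transcript starts are shown because the bins that hold the first pair had the lowest coverage of any member gene in SW480 and in SNU-C1 and HCC1954, and the third lay in a bin that was covered in every line. They are the 250 bases upstream of the GENCODE canonical transcript in GRCh37, whose chromosome lengths equal those of the bin table for each autosome. The SMAD4 stretch is chr18:48556333-48556582 (plus strand, 68.4% G+C), the STK11 stretch is chr19:1205527-1205776 (plus strand, 76.0% G+C) and the CDKN2B stretch is chr9:22009305-22009554 (minus strand, 66.4% G+C). Capitals mark the MboI site GATC, a palindrome that reads the same on both strands.
SMAD4: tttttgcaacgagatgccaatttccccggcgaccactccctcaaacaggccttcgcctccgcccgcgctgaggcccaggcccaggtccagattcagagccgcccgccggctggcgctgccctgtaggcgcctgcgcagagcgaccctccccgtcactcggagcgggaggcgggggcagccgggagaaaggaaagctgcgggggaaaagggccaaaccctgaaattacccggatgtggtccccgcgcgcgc
STK11: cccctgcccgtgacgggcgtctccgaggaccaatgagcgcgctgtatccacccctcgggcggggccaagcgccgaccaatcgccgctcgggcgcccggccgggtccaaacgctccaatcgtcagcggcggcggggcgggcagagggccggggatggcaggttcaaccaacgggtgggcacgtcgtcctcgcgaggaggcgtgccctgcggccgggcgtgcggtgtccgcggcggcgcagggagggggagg
CDKN2B: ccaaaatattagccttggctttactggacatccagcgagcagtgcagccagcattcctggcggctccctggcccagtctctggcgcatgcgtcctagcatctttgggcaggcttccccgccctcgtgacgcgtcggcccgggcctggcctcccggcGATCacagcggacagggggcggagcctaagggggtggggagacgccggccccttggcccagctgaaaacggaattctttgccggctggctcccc
GATC was absent from the first 2 stretches and present 1 time in the CDKN2B stretch, and 35.8% of 35116 RefSeq promoters (GRCh38.p14, the 250 bases before the start) held at least 1. Whole bins were not short of cut sites, with 113 in the bin of SMAD4 exon 1, 88 in the bin of STK11 exon 1 and 90 in the bin of CDKN2B.

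Coverage of a bin was the number of its read pairs with other bins of the same chromosome, as a ratio to the median of autosomal bins in the same map. The relative coverage of a line was that ratio over the median of the other 3 lines, and a gene took the median of its bins. A relative coverage of at most 0.67 was called low and one of at least 1.5 high. Of 32 combinations of gene and line, 3 were low and 4 were high. Among all autosomal protein-coding genes the low calls made up 6.81% in OE33, 19.6% in HCC1954, 19.1% in SNU-C1 and 4.92% in SW480, and the high calls 28.9%, 9.6%, 4.51% and 12.3% in the same order. Members were called low in 1, 1, 1 and 0 of 8 cases in that order and high in 1 case in each line, and counts this small were not set apart from the background shares. Of the 7 calls, 4 were at STK11, and without STK11 there were 1 low and 2 high calls. Bulk maps cannot tell a copy lost in every cell from one lost in some of them.

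**Figure D1:**
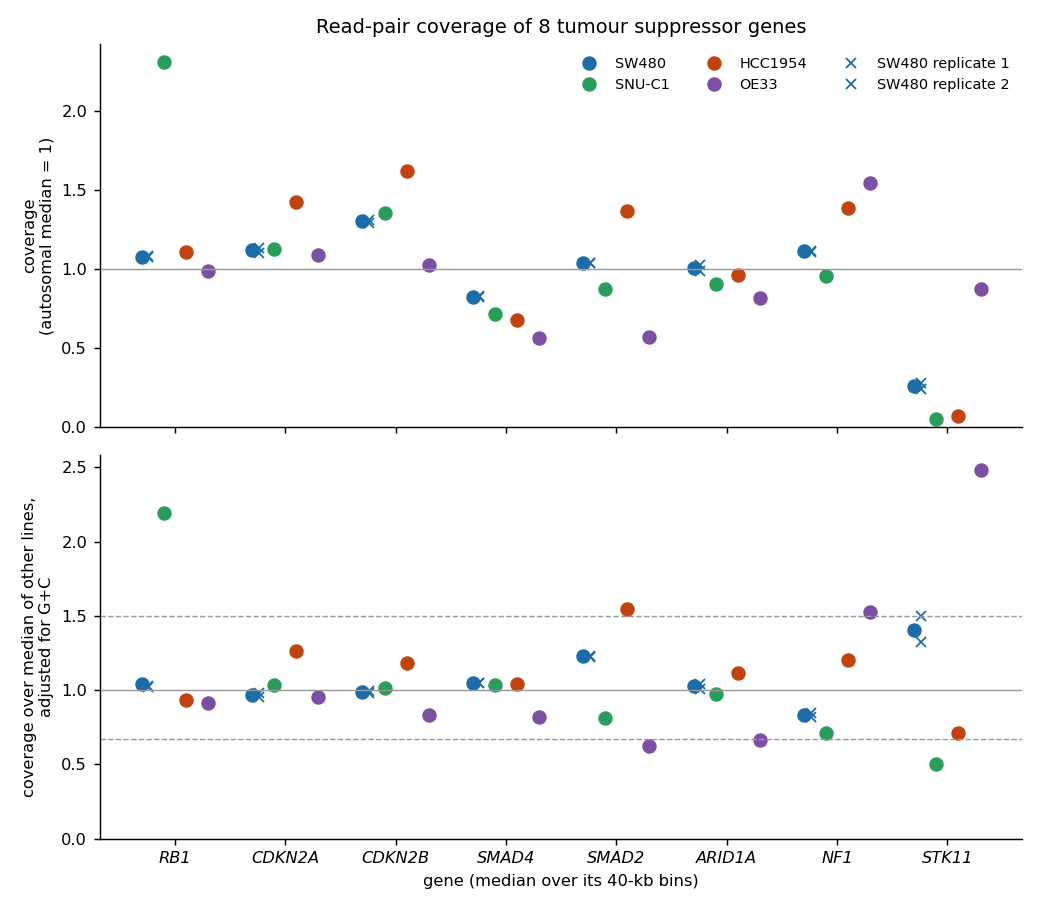
Coverage of the 8 genes in the 4 lines (filled points) and in both SW480 replicates (crosses), as a ratio to the autosomal median (upper panel) and, after adjustment for the G+C share of each bin, as a ratio to the median of the other lines (lower panel, dashed lines at 0.67 and 1.5). SNU-C1 stood at 2.31 over RB1, while the other lines stood between 0.987 and 1.11, and the replicates lay close to the pooled map at each gene. In the lower panel STK11 rests on its first bin alone.

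RB1 (chr13:48877880-49173572, plus strand, 27 exons in the canonical transcript, 9 bins) had the largest excess of coverage in 1 line apart from STK11. Its coverage was 0.987 in OE33, 1.11 in HCC1954, 2.31 in SNU-C1 and 1.08 in SW480 (1.08 in both replicates). SNU-C1 stood apart from the other lines, which lay close together. The relative coverage of RB1 in SNU-C1 was 2.22, and all of its 9 bins lay between 2.16 and 2.92 times the autosomal median. The same was seen on a larger scale, with a relative coverage of 2.25 over the window, 2.37 over the 10 Mb on either side of it and 2.33 over chromosome 13 as a whole. The excess was thus shared by the chromosome and was not particular to RB1. In OE33 the chromosome had a relative coverage of 0.658, against 0.84 over RB1. No bin of the window lacked read pairs in any line.

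CDKN2A (chr9:21967751-21995300, minus strand) and CDKN2B (chr9:22002902-22009304, minus strand) lay in 1 bin each. The CDKN2A bin held 4157 read pairs in SW480 (2028 and 2129 in the replicates), 2751 in OE33, 3569 in HCC1954 and 3604 in SNU-C1. These counts corresponded to a coverage of 1.12, 1.09, 1.42 and 1.13, so the gene was covered at or above the autosomal median in all 4 lines. CDKN2B had a coverage of 1.31, 1.03, 1.62 and 1.36 in the same order, SW480 first and SNU-C1 last. The lowest relative coverage of the pair was 0.758, for CDKN2B in OE33, which was 0.836 after adjustment for G+C. Neither gene was called low in any line, and none of the 52 bins of the shared window was without pairs. A loss much shorter than a bin would not be seen here.

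SMAD4 (chr18:48554898-48611415, plus strand, 12 exons, 3 bins) was not called as a gene in any line, with a relative coverage of 0.838 in OE33, 1.05 in HCC1954, 1.02 in SNU-C1 and 0.981 in SW480. Its first bin, however, was low in SW480 only. That bin (chr18:48520001-48560000) holds the first 5103 bases of the gene, including exon 1 of the canonical transcript (chr18:48556583-48556993), together with the overlapping gene model ENSG00000267699. It held 538 read pairs in SW480 (95% exact Poisson interval 493 to 585, counting error only), 271 in replicate 1 (240 to 305) and 267 in replicate 2 (236 to 301). In SNU-C1 the same bin held 2286 read pairs, in HCC1954 1707 and in OE33 1442. As coverage these were 0.145 in SW480 (0.147 and 0.142 in the replicates) against 0.716, 0.681 and 0.571 in SNU-C1, HCC1954 and OE33. Both SW480 replicates were low and every other line was several times higher.

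The fall was limited to 1 bin. In SW480 the bin before it had a coverage of 0.977 and 0.971 in the replicates, and the bin after it 0.829 and 0.822. The low bin reached 0.161 of the mean of these 2 neighbours in SW480 (0.163 and 0.159 in the replicates), against 0.953 in OE33, 0.838 in HCC1954 and 0.887 in SNU-C1. Base composition of the bin (42.7% G+C) and its cut sites were taken from the reference, and no line's own sequence was read. The ratio to 10 neighbours gave the same picture, at 0.167 in SW480 and 0.917 to 1.02 in the other lines. Of the pairs that remained, 63.4% were within 2 Mb, against 61.6% and 65.8% in the neighbours, and 40% within 200 kb, against 35.4% and 30.3%. In the replicates the latter share was 36.5% and 43.4%. A bin of this kind was rare. With relative coverage of at most 0.33 and at least 0.67 on both sides, a definition made after this bin had been seen, 3 of 62391 autosomal bins (0.00481%) qualified in SW480, 11 (0.0175%) in OE33, 3 (0.00476%) in HCC1954 and 5 (0.00799%) in SNU-C1. The other 2 in SW480, chr4:161040001-161080000 and chr14:106880001-106920000, overlapped no protein-coding gene, and the SMAD4 bin was the only such bin in any member window. The bins that qualified in SNU-C1, HCC1954 or OE33 all had a relative coverage of 0 in that line, whereas the SMAD4 bin of SW480 was at 0.213 (0.216 and 0.209 in the replicates). Whether the SMAD4 bin was low because the DNA was absent was not tested, as no sequence coverage other than Hi-C was used.

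Contact between the bins on either side of the low bin was measured too. Their observed over expected contact (O/E), the corrected value over the mean at the same distance, was 1.26 and 1.38 in the SW480 replicates, 1.45 in OE33, 1.52 in HCC1954 and 1.44 in SNU-C1. SW480 was thus the lowest on the corrected scale. On uncorrected read pairs the order changed, with 1.61 in SW480 (1.51 and 1.71) from 233 pairs, 1.18 in both SNU-C1 and HCC1954 and 0.809 in OE33. The order of the lines thus changed with the correction. Uncorrected pairs also depend on the coverage of the 2 flanking bins. It was 0.975 and 0.826 in SW480, 0.773 and 0.842 in SNU-C1, 0.755 and 0.871 in HCC1954, and 0.635 and 0.563 in OE33.

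**Figure D2:**
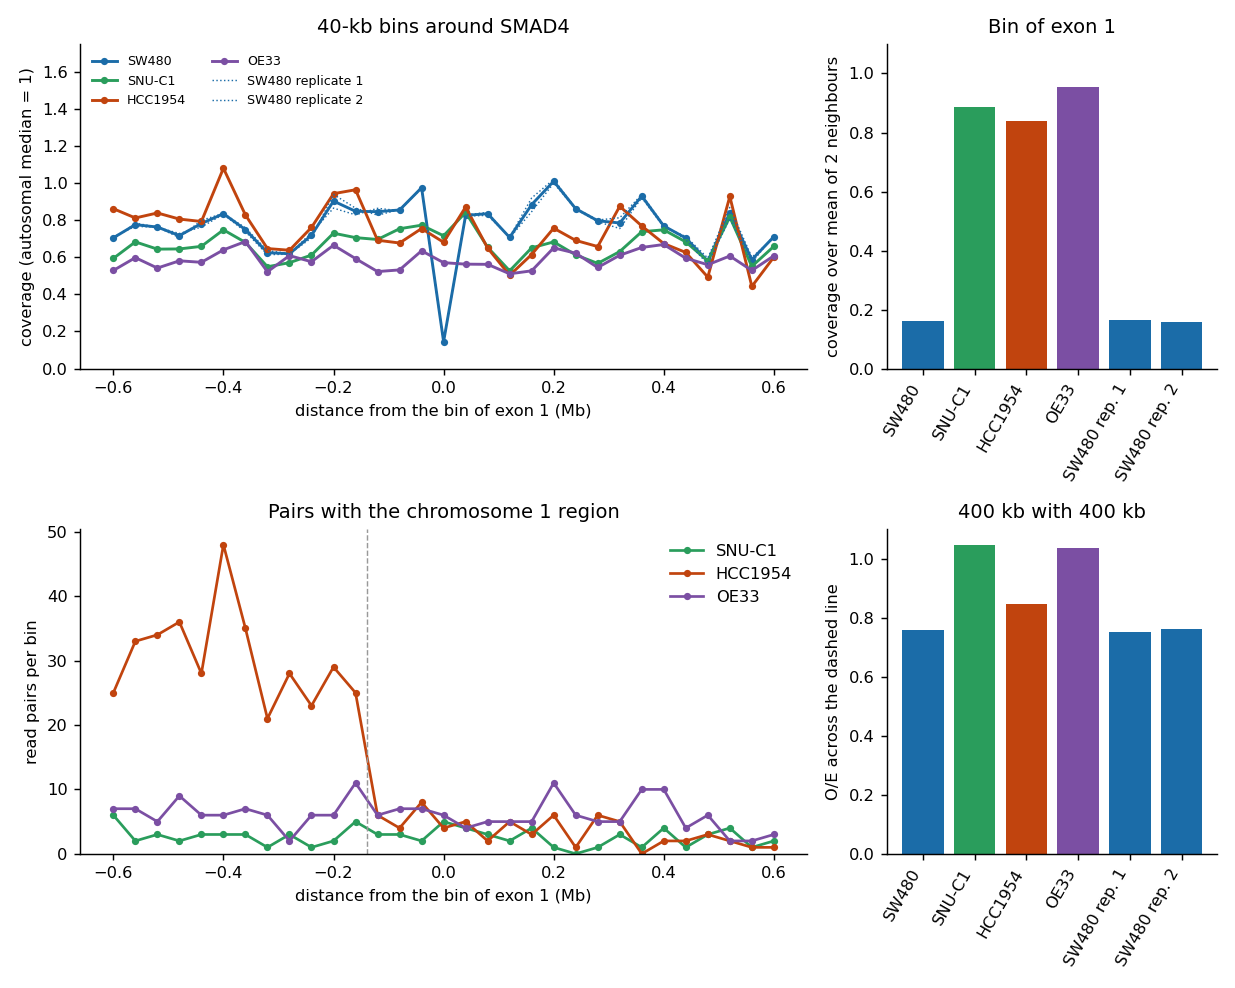
SMAD4 locus in 40-kb bins. Upper panels give coverage against distance from the bin of exon 1 and the ratio of that bin to the mean of its 2 neighbours, which was 0.161 in SW480 and at least 0.838 in the other lines, and lower panels give the read pairs of each bin with the region from 96 to 120 Mb of chromosome 1 in the 3 lines with pairs between chromosomes (dashed line at the start of the bin at 48.4 Mb) and the O/E of the 400 kb before that line with the 400 kb after it.

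HCC1954 showed another change 155 kb before SMAD4. Read pairs of chromosome 18 bins with the region from 96 to 120 Mb of chromosome 1, which spans the partner blocks specific to HCC1954 at SMAD2 and SMAD4, numbered 307 (274 to 343) over the 400 kb before 48.4 Mb and 44 over the 400 kb after it. Single bins ranged from 21 to 48 pairs before this position and from 1 to 8 after it, with no overlap, and the last bin before it held 25 pairs and the first bin after it 6. In SNU-C1 the sums were 26 and 27, and in OE33 64 and 62. Blocks specific to HCC1954 defined the region, and that call needs low values in the other lines, so SNU-C1 and OE33 are no control here. Pairs with the region of chromosome 11 chosen in the same way, 81 to 104 Mb, were of like number on both sides in HCC1954, at 385 and 428. The 1-Mb blocks around SMAD2 kept a high O/E with the block at 116 Mb of chromosome 1 in HCC1954, from 6.7 to 11.1, so SMAD2 and SMAD4 lay on different sides of the position. The cause was not tested. The position is that of an insulation boundary of HCC1954, and both it and the regions were chosen after the contacts had been seen.

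The relative coverage of HCC1954 was 1.25 over the 10 bins before 48.4 Mb and 0.994 over the 10 bins after it, a log2 ratio of -0.33 that was also -0.33 after adjustment for G+C. These ratios are taken against the other lines, so a fall in one raises the others. The coverage itself went from 0.817 to 0.686 in HCC1954 and from 0.587 to 0.562 in OE33, and from 0.652 to 0.69 in SNU-C1 and 0.756 to 0.85 in SW480. Insulation is the log2 mean of contacts that cross a bin within 1 Mb, over the chromosome mean. A boundary was called where its slope, taken over 200 kb on either side, turned from falling to rising, a position that can lie between a pair of minima. Such a call of strength 0.74 set the position in HCC1954, and no other line had a call within 80 kb of it. The insulation of HCC1954 was -0.69 there, with minima of -0.88 at 80 kb before it and -0.81 at 200 kb after it. The other lines had minima within 40 kb of the first of these, at -0.64 in SW480, -0.55 in SNU-C1 and -0.77 in OE33, so the call and not the minimum set HCC1954 apart. Contacts within chromosome 18 crossed the position, with an O/E of 0.85 in HCC1954 over 400 kb on either side, 0.76 in SW480, 1.05 in SNU-C1 and 1.04 in OE33.

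SMAD2 (chr18:45335328-45457517, minus strand, 4 bins) varied more between lines than SMAD4, the other member on chromosome 18. Its coverage was 0.569 in OE33, 1.37 in HCC1954, 0.873 in SNU-C1 and 1.04 in SW480 (1.04 in both replicates). HCC1954 was called high, with a relative coverage of 1.51, and OE33 low, with 0.588. After adjustment for G+C these values were 1.54 and 0.626, and both calls held. Neither call was made where each other line had to pass, nor over the window, where OE33 was at 0.745. Chromosome 18 as a whole had a relative coverage of 1.04 in HCC1954 and 0.734 in OE33, so neither line was past a limit over the chromosome. Over the window HCC1954 had a relative coverage of 1.27, and its relative coverage stepped by -0.57 (log2, 5 bins before against 5 after) at 44.84 Mb, -0.47 after adjustment for G+C. OE33 was the lowest line for SMAD4 as well, with a coverage of 0.563 against 0.681 to 0.826.

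ARID1A (chr1:27019727-27108595, plus strand, 20 exons, 3 bins) varied little. Its coverage was 0.817 in OE33, 0.963 in HCC1954, 0.908 in SNU-C1 and 1.01 in SW480 (0.988 and 1.03 in the replicates). No call was made, but the relative coverage of 0.746 in OE33 became 0.662 after adjustment for G+C, which is low by the same limit. Over the window OE33 was at 0.693 after adjustment. No bin of the window lacked pairs in any line.

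NF1 (chr17:29421945-29709134, plus strand, 58 exons, 8 bins) was highest in OE33. Its coverage was 1.55 in OE33, 1.39 in HCC1954, 0.958 in SNU-C1 and 1.11 in SW480 (1.12 and 1.11). The relative coverage of OE33 was 1.41 over the gene, 1.61 over the window and 1.94 over the 10 Mb on either side, and after adjustment for G+C the gene was at 1.52, a high call. SNU-C1 was the lowest, at 0.721 over the gene, 0.722 over the 10 Mb on either side and 0.764 over the chromosome. No bin of NF1 itself was without pairs in any line. In the window 3 bins of SNU-C1 and 2 of HCC1954 had no pairs, from 28.92 to 30.36 Mb, and the protein-coding gene among them was LRRC37B, a member of a family of near-identical copies on chromosome 17. Both bins of HCC1954 were among the 3 of SNU-C1.

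STK11 (chr19:1177557-1228430, plus strand, 10 exons, 2 bins) was measured well in OE33 only. Its first bin held 1069 read pairs in SW480 (492 and 577 in the replicates), 2323 in OE33, 347 in HCC1954 and 339 in SNU-C1. The second bin, with exon 1 of the canonical transcript (chr19:1205777-1207202), held 874 (408 and 466) in SW480 and 2103 in OE33, and none in SNU-C1 and HCC1954, where a count of 0 has an upper 95% limit of 3.69 pairs. Gene coverage was 0.876 in OE33, 0.0692 in HCC1954, 0.0531 in SNU-C1 and 0.262 in SW480. These 2 bins have 57.5% and 62.5% G+C, against 37.9% over NF1 and 41.7% over SMAD4.

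Coverage was also set against base composition across the genome. Among autosomal bins with at least 58% G+C, 42.6% had no pairs in SNU-C1 and 53.5% in HCC1954, against 0.228% in SW480 and 2.05% in OE33. Among bins from 38% to 42% G+C the shares in these lines were 3.58%, 3.78%, 1.54% and 3.25% in the same order. Covered bins of the richest class had a median coverage of 1.04 in OE33, 0.319 in HCC1954, 0.363 in SNU-C1 and 0.427 in SW480. Between the poorest class, under 38% G+C, and the richest the median went from 0.892 to 1.04 in OE33, with a highest value of 1.15 from 46% to 54%, and from 1.03, 1.07 and 0.965 in HCC1954, SNU-C1 and SW480 to the values above. Compared with autosomal bins of the same G+C share that had pairs, STK11 reached 0.841 in OE33 and 0.543 in SW480 over both bins. In HCC1954 and SNU-C1 only its first bin had such a value, 0.345 and 0.243, as the empty second bin was given none. Inside the STK11 window, bins below and at or above its median G+C had a median coverage of 0.272 and 0.274 in SW480. The same values were 0.93 and 0.941 in OE33, 0.225 and 0 in SNU-C1, and 0.139 and 0 in HCC1954. A change in the number of STK11 copies and the effect of base composition cannot be told apart in SNU-C1 and HCC1954 from these maps, and the 4 calls at STK11, which include a relative coverage of 6.64 in OE33 from 1 bin, are not read as gains or losses. After adjustment for G+C the relative coverage rested on the first bin alone in each line. It was 2.48 in OE33, 0.711 in HCC1954, 0.501 in SNU-C1 and 1.41 in SW480. The calls in HCC1954 and SW480 were lost, but the empty second bin of HCC1954 was left out. The first bin of HCC1954 was at 0.481 before adjustment.

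**Figure D3:**
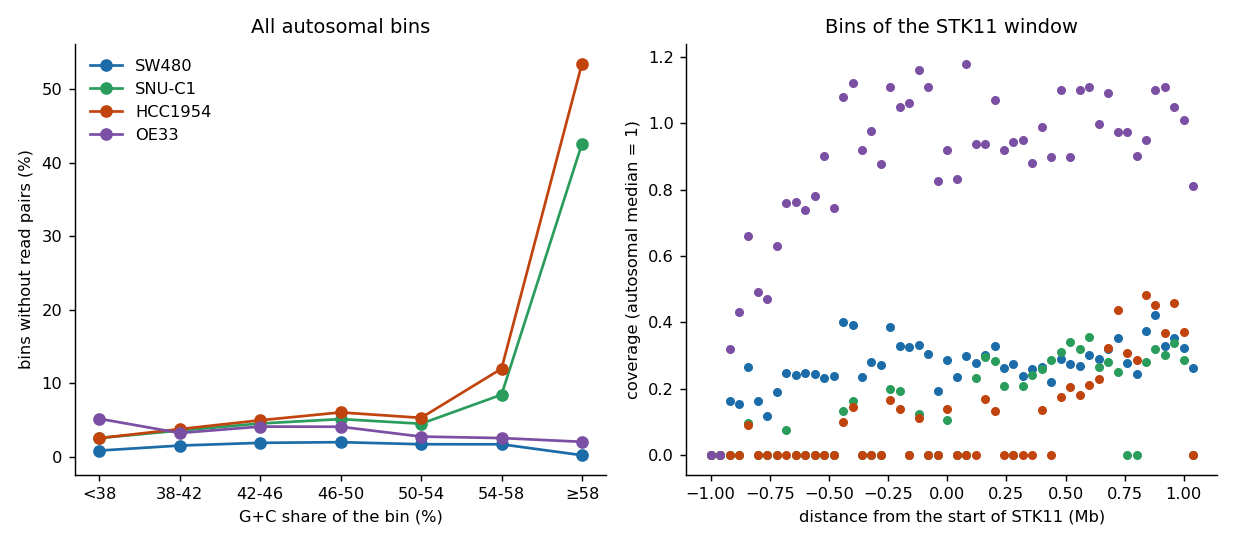
Share of autosomal bins without read pairs by G+C class in the 4 lines (left) and coverage of each bin of the STK11 window against distance from the gene (right). Bins without pairs rose to 42.6% in SNU-C1 and 53.5% in HCC1954 in the richest class, and OE33 lay above the other lines across most of the STK11 window.

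Bins without pairs in a line, with at least 0.25 of the median in another, numbered 53 over the 7 windows when counted once for each line. Of these 53, 48 lay in the STK11 window. The share was 0% in SW480 and OE33, 6.6% of 379 bins in SNU-C1 and 7.39% of 379 bins in HCC1954, against 0.255%, 2.1%, 1.94% and 2.37% of all autosomal bins in SW480, OE33, SNU-C1 and HCC1954. Without STK11 the shares were 0.912% in SNU-C1 and 0.608% in HCC1954, below their backgrounds. In the STK11 window 22 bins of SNU-C1 and 26 of HCC1954 were empty, 20 of them in both lines, with a median of 60.4% and 60.2% G+C. They overlapped 48 protein-coding genes in SNU-C1 and 58 in HCC1954, of which 45 were shared. Among the shared genes were ELANE, the neutrophil elastase, GPX4, which protects membranes from lipid peroxides, PTBP1, a splicing regulator, and DOT1L, a histone H3 methyltransferase. TCF3, a transcription factor of early lymphocytes, was among those in HCC1954 only. The methods give no treatment of bins of low coverage, so a bin without pairs may be one that was left out before deposit.

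Steps of relative coverage were counted inside the windows. They compare a line with the others, so a step can also come from the other lines. A step of at least 0.5 on the log2 scale was found in 5 of 7 windows in HCC1954, 3 in OE33, 1 in SW480 and 0 in SNU-C1. Such steps were common around all protein-coding genes, in 40.3%, 51.1%, 16.9% and 22.6% of windows in the same order. Of the steps in member windows, 4 in HCC1954, 0 in OE33 and 1 in SW480 were still of at least 0.5 after adjustment for G+C. The share over all protein-coding genes was not computed after adjustment, so these counts have no background. The largest away from STK11 were at 28.88 Mb in the NF1 window, 0.90 in SW480 (0.92, placed at 28.84 Mb, and 0.89 in the replicates) and -0.88 in HCC1954, next to the bins without pairs. The coverage of SW480 itself fell there, from 0.948 to 0.644 between neighbouring bins, while that of SNU-C1 fell from 0.765 to 0.318. In OE33 the step of 0.71 at 29.72 Mb, just past the end of NF1, was -0.01 after adjustment for G+C, the step of -0.58 at 27.96 Mb in the ARID1A window was 0.03, and that of -0.68 at 44.32 Mb in the SMAD2 window was -0.34. In HCC1954 the step of 0.53 at 21.56 Mb before CDKN2A and that of -0.55 at 49.20 Mb past SMAD4 were 0.53 and -0.55 after adjustment. The step of SW480 in the NF1 window was 0.66 and that of HCC1954 -0.69 after adjustment.

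Of 70 boundaries in the windows, 49 (70.0%) had a counterpart within 80 kb in all of the other lines, which was near the 64.1% of 10245 across the autosomes. With a counterpart required within 1 bin, 34 were shared. Windows ranged from 4 of 11 shared (36.4%) at SMAD2 and 5 of 10 at RB1 to 12 of 12 at CDKN2A and CDKN2B. Between the SW480 replicates, 96.7% of the autosomal boundaries of replicate 1 had a counterpart in replicate 2. In the CDKN2A and CDKN2B window all 12 boundaries were shared within the 80 kb allowed, at 21.12 to 21.20, 21.76 to 21.84 and 22.32 to 22.40 Mb. Both genes lay together between the last 2 of these, in a domain of 0.52 to 0.6 Mb. ARID1A lay in the same 0.44-Mb domain in every line, from 26.80 to 27.24 Mb.

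RB1 lay in a domain of 0.8 to 0.96 Mb that began at 48.52 to 48.60 Mb in each line. Its end was at 49.36 Mb in SW480, 49.40 in OE33, 49.44 in HCC1954 and 49.52 in SNU-C1. NF1 lay between boundaries at 29.04 to 29.08 and 29.68 to 29.72 Mb, so that the second fell at the end of the gene in each line. SMAD2 held a boundary within the gene at 45.36 Mb in SW480, SNU-C1 and HCC1954, with a strength of 0.86, 0.80 and 1.09. In OE33 the nearest one was at 45.48 Mb, with a strength of 0.53, past the transcript start, and was found in no other line. The minimum itself lay outside the gene, past its transcript end, in the same bin in HCC1954, SNU-C1 and SW480, at -0.86, -0.57 and -0.71. In OE33 that bin was at -0.21, and the lowest value near the gene was -0.24 on its other side, next to the call. The median insulation over SMAD2 was -0.49, -0.36 and -0.60 in the first 3 lines, and -0.11 in OE33.

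Around SMAD4, all 4 lines shared boundaries at 47.96 to 48.04 and 49.04 to 49.08 Mb. HCC1954 alone had the boundary at 48.4 Mb, and SNU-C1 alone had one called at 48.56 Mb, of strength 0.36, within the gene. These 2, that of OE33 at SMAD2 and one of SNU-C1 at 30.32 Mb near LRRC37B were the boundaries found in 1 line only, 4 of 70, against 6.87% of all autosomal boundaries. Next to the SNU-C1 call, every line had an insulation minimum in the bin at 48.6 Mb, which holds the end of SMAD4. This minimum was -0.81 for HCC1954, -0.60 for OE33, -0.57 for SW480 and -0.56 for SNU-C1. The call and not the minimum thus set SNU-C1 apart at SMAD4. Insulation was computed from bins covered in all 4 lines, which were too few in the STK11 window, also for OE33, where 2 of its 52 bins were under 0.25.

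**Figure D4:**
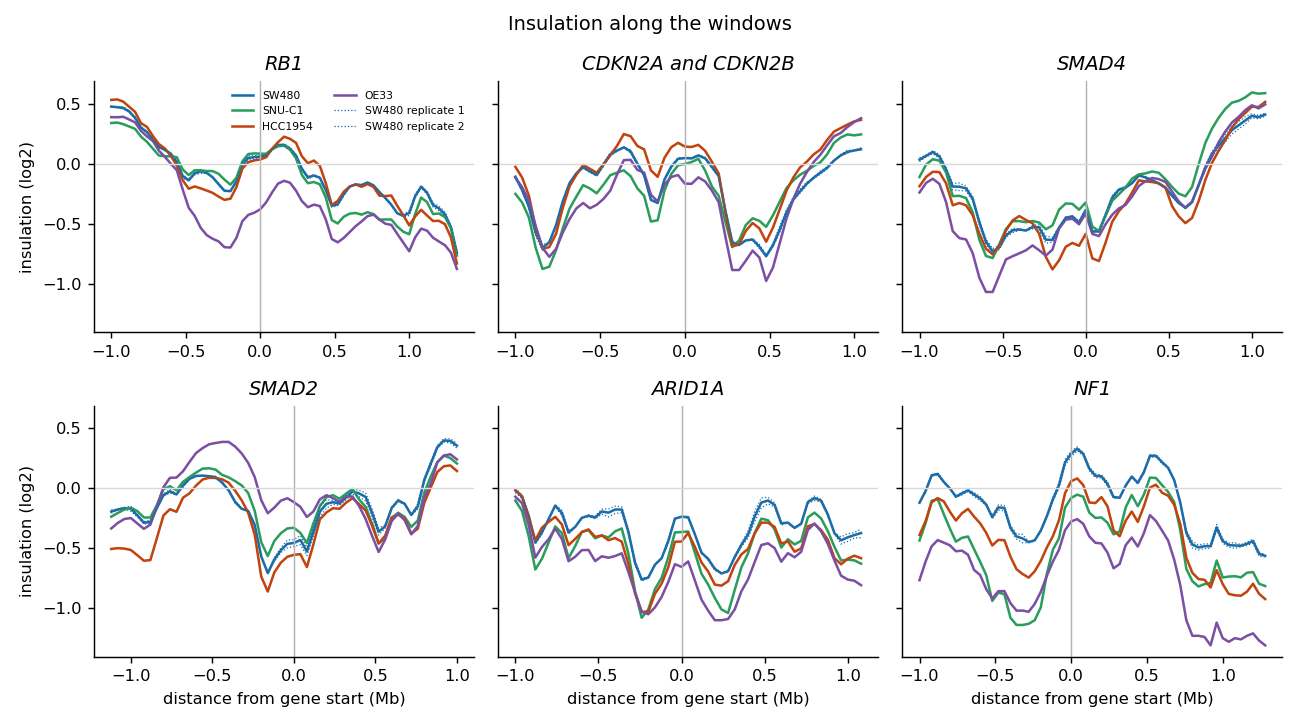
Insulation (log2 of the mean contact across each 40-kb bin within 1 Mb, over the chromosome mean) against distance from the gene start in 6 windows for the 4 lines and both SW480 replicates. OE33 was the least negative over SMAD2 (-0.11 against -0.36 to -0.60), and in the dip nearest before SMAD4, which all 4 lines had, HCC1954 was the lowest (-0.88 against -0.55 to -0.77).

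The insulation profiles correlated between lines with a Pearson's r over window bins of 0.822 to 0.971 for RB1, 0.847 to 0.958 for CDKN2A, 0.903 to 0.979 for SMAD4, 0.91 to 0.987 for ARID1A and 0.831 to 0.984 for NF1, against 0.983 to 0.997 between the SW480 replicates in these windows. SMAD2 had the lowest value, 0.598, and a median over pairs of lines of 0.869, with 0.991 between the replicates. Bins of a window share their reads with their neighbours, so these values only describe the profiles. The contacts of the transcript start bin with its window gave 0.839 to 0.963 for CDKN2A and 0.895 to 0.965 for ARID1A, where the replicates gave 0.959 and 0.943. The same contacts gave 0.735 to 0.926 for SMAD2 and 0.884 to 0.955 for CDKN2B, where the replicates gave 0.904 and 0.967. For RB1 and NF1 they gave 0.863 to 0.926 and 0.849 to 0.899, where the replicates gave 0.873 and 0.871. At SMAD4, taken from the bin after the low one, they gave 0.661 to 0.834 between lines and 0.867 between replicates.

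No window held a contact that was specific to 1 line inside its 2 Mb. A contact was called when its O/E over 3 by 3 bins was no less than 4 and, with 0.5 added on both sides, no less than 4 times that of any other line, for bins at least 200 kb apart. Over 1128 to 1485 bin pairs per window outside STK11, and 7 at STK11, no pair passed in any line. Among windows of all protein-coding genes 0.052% passed in SW480, 0.12% in OE33, 0.026% in HCC1954 and 0.135% in SNU-C1, so a count of 0 in 7 windows lay close to the background. The highest ratio was 2.09, in SNU-C1 between 47.56 and 49.60 Mb around SMAD4, from 22 read pairs. The next was 2.01 in OE33, between 44.92 and 45.72 Mb around SMAD2, where 46 read pairs gave an O/E of 1.36 against 0.364 to 0.425. This contact spans the SMAD2 gene and its boundary.

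Contacts of the windows with the rest of their chromosome, from 2 Mb on, were as sparse. Of 33887 pairs of 200-kb blocks, 0 were specific in SW480, 7 (0.0207%) in OE33, 43 (0.127%) in HCC1954 and 25 (0.0738%) in SNU-C1. Across the autosomes the shares were 0.044%, 0.0943%, 0.248% and 0.199% in the same order. With at least 10 read pairs 4 of the 75 remained, 3 in SNU-C1 and 1 in OE33. At this limit 0.0413% of autosomal block pairs were specific in SNU-C1 and 0.0167% in OE33. By O/E the strongest was in OE33, between 26.2 and 202.6 Mb of chromosome 1 at ARID1A, with 7.5 from 10 pairs against 0 to 1.27. The one that exceeded the other lines most lay between 11.2 and 45 Mb of chromosome 18 in SNU-C1, with an O/E of 5.42 from 11 pairs against 0 to 0.494. RB1 had none in any line, although its coverage was high in SNU-C1.

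Contacts with other chromosomes were compared in 1-Mb blocks that overlapped a window, in SNU-C1, HCC1954 and OE33, with the same limits. HCC1954 had 170 specific block pairs of 52863 (0.322%), SNU-C1 32 (0.0605%) and OE33 29 (0.0549%), against 0.362%, 0.165% and 0.054% of all block pairs between autosomes. Over all windows together HCC1954 and SNU-C1 thus lay below their background and OE33 at it. A specific block pair is by definition high in 1 line only, so differences between lines in the blocks reached are built into the call. RB1 had 1 in SNU-C1 and ARID1A had none in any of the 3 lines.

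The CDKN2A and CDKN2B window had 48 specific block pairs of 10028, all in HCC1954, where 0.362% of all block pairs between autosomes were specific. Of the 48, 24 were with chromosome 22, 13 with chromosome 21, 4 each with chromosomes 8 and 20, and 3 with chromosome 12. The strongest had an O/E of 12.9 from 79 read pairs, between the blocks at 21 Mb of chromosome 9 and 24 Mb of chromosome 21, against 1.6 in SNU-C1 and 0.473 in OE33. It did not mark the place where the chromosomes were in closest contact. With chromosome 12 the highest O/E of 279 was in the block at 18 Mb, 2.97 Mb from CDKN2A, and with chromosome 22 the highest of 145 was in the block at 4 Mb, 17.0 Mb from it. No single pair of 40-kb bins held more than 4 read pairs in the strongest block pair of the 15 combinations of window and partner chromosome that had more than 1 specific block pair.

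SMAD2 and SMAD4 had contacts with chromosome 4 in OE33 and with chromosomes 1 and 11 in HCC1954. In HCC1954 the SMAD2 window had 41 specific block pairs with chromosome 1 and 24 with chromosome 11, and the SMAD4 window 14 and 35. Over all chromosomes 66 of the 7632 block pairs of the SMAD2 window and 51 of the 7632 of the SMAD4 window were specific in HCC1954. Both shares were above the 0.362% of all block pairs between autosomes. The strongest, at SMAD2, joined the block at 44 Mb to the block at 103 Mb of chromosome 11, with an O/E of 15.5 from 144 read pairs, against 0.609 in SNU-C1 and 0.306 in OE33. On chromosome 18 the highest O/E with chromosome 11, 54.9 from 429 pairs, was in the block at 40 Mb, 4.34 Mb from SMAD2. Next to SMAD4 the strongest was with the block at 101 Mb, with an O/E of 15.4 from 63 pairs.

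In OE33 the SMAD4 window had 16 and the SMAD2 window 13 specific block pairs of 7632 each, all with chromosome 4. Both shares were above the 0.054% of all block pairs between autosomes in OE33. The O/E of these block pairs reached 12.2 from 68 read pairs, against 1.29 in SNU-C1 and 0 in HCC1954. The highest O/E of these chromosomes, 38.5, was in the block at 27 Mb, 20.6 Mb from SMAD4, with the block at 180 Mb of chromosome 4. In SNU-C1 the NF1 window had 30 of its 7635 block pairs specific, all with chromosome 2. That share was above the 0.165% of all block pairs between autosomes in SNU-C1. The strongest of the 30 by O/E was 17.7 from 98 pairs, against 2.65 in HCC1954 and 2.21 in OE33. It lay between the block at 28 Mb and the block at 10 Mb of chromosome 2. The highest of that pair of chromosomes, 35.2, was in the block at 26 Mb, 2.42 Mb before NF1.

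**Figure D5:**
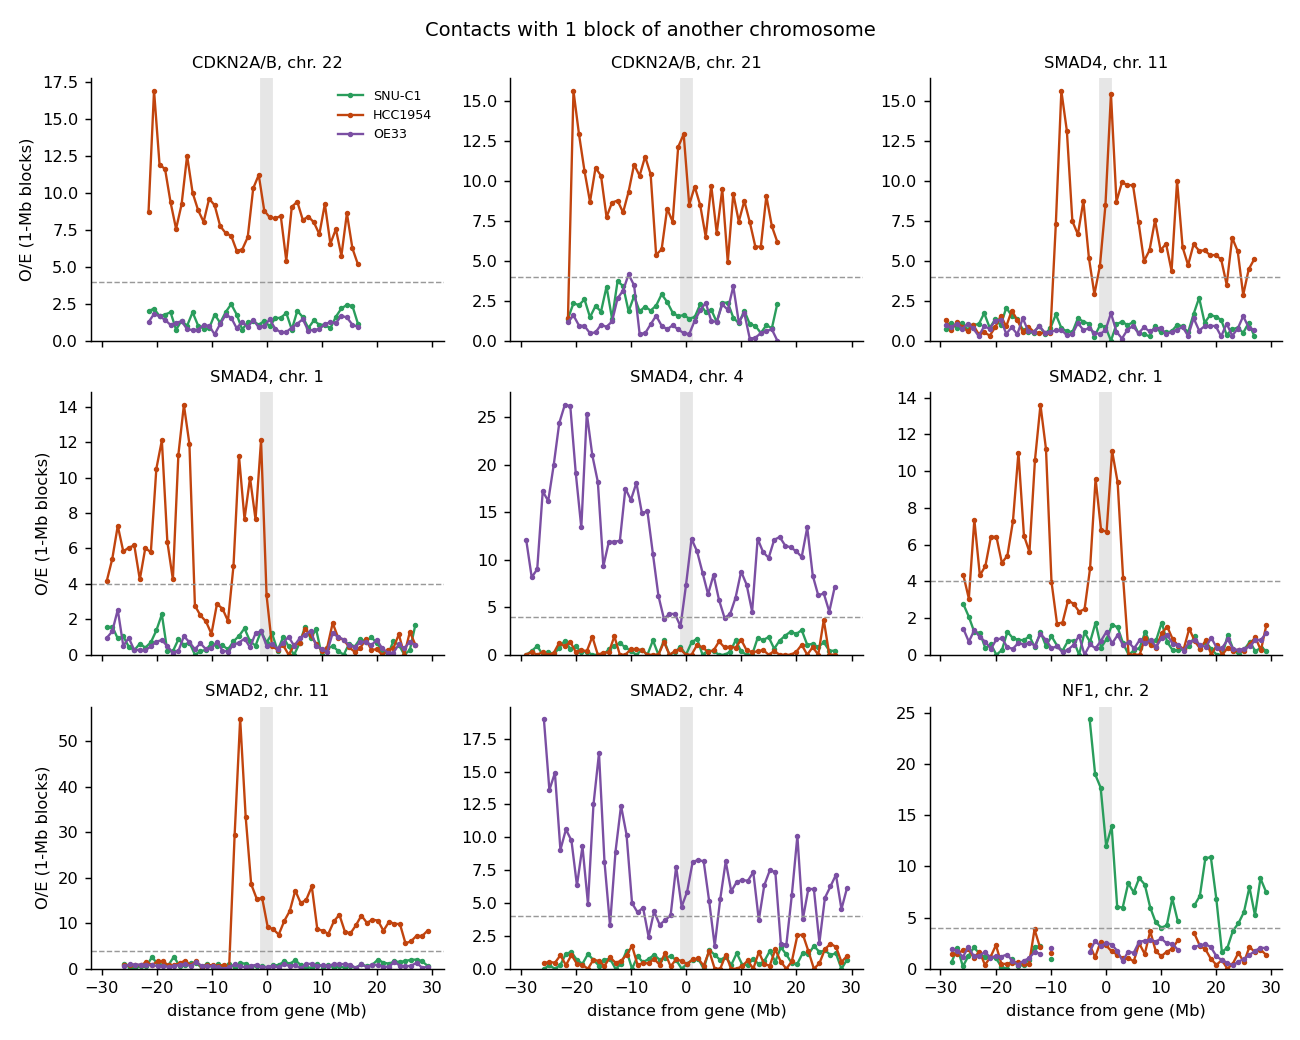
O/E of 1-Mb blocks along the member's chromosome with the strongest partner block of another chromosome, for the 9 cases with at least 10 specific block pairs, against distance from the gene (grey band, 1 Mb on either side, and dashed line at an O/E of 4). HCC1954 contacts of the SMAD4 window with chromosome 1 fell from 12.1 in the block that ends before SMAD4 to 0.475 in the block after it, whereas those of the CDKN2A and CDKN2B window with chromosome 22 were 11.2 in the block before the 2 blocks that hold these genes and 8.27 in the block after them.

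At STK11 the highest contact of 2 chromosomes lay in a block that overlapped the window. In HCC1954 the block at 2 Mb of chromosome 19 and the block at 39 Mb of chromosome 11 had an O/E of 33.3 from 78 read pairs (61.7 to 97.3), against 1.13 in SNU-C1 and 1.34 in OE33. It was the highest O/E between these 2 chromosomes. The pairs were spread over 59 bin pairs, of which the fullest held 3. The block begins 0.772 Mb past STK11 and reaches beyond the window. Of the 2 bins of STK11 itself, 1 held 347 same-chromosome pairs in HCC1954 and the other none.

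Genes of the same pathways were set beside the members, in 6 lists with 54 genes. Across all lists, 2 genes were low and 1 was high of 53 measured in SW480, 9 and 2 of 54 in SNU-C1, 6 and 8 of 54 in HCC1954, and 6 and 11 of 53 in OE33. Among all autosomal genes 4.92% were low and 12.3% high in SW480, 19.1% and 4.51% in SNU-C1, 19.6% and 9.6% in HCC1954, and 6.81% and 28.9% in OE33. In the same order the median relative coverage over the lists was 1.05, 0.852, 1.06 and 1.11, and over all autosomal genes it was 1.12, 0.857, 0.935 and 1.12. Adjusted for G+C, 7 genes of the lists were low and 1 was high in OE33, against 9.05% and 9.16% of all genes. In HCC1954 5 were low and 9 high, against 11.5% and 10.9%, in SNU-C1 4 and 1, against 5.83% and 5.86%, and in SW480 1 and 2, against 5.09% and 7.39%.

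In the list of RB and cell cycle inhibitors, 4 of 9 genes were low in HCC1954 and 2 high, also after adjustment for G+C, where 19.6% and 9.6% of all genes were low and high before it and 11.5% and 10.9% after it. RBL1, a paralogue of RB1, had a relative coverage of 0.343 there. CDKN1B, the CDK inhibitor p27, was the highest of the lists in SW480, at 1.66. CDKN1C, the related inhibitor p57, was the highest in OE33 at 2.9, which was 1.2 after adjustment for G+C. In the ARF and p53 list, 2 of 5 genes were low in SNU-C1, and 1 after adjustment, against 19.1% and 5.83% of all genes, and 1 was high in HCC1954.

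Of the TGF-beta and SMAD list, 0 of 12 genes were low or high in SW480, where 4.92% and 12.3% of all genes were. In HCC1954 the list had 0 of either, against 19.6% and 9.6%. In OE33 1 was low and 1 high, against 6.81% and 28.9%, which became 3 low and 1 high after adjustment for G+C, against 9.05% and 9.16%. In SNU-C1 2 were low, or 1 after adjustment, and 1 was high, against 19.1% low and 4.51% high among all genes. The high one was SMAD9, a receptor-regulated SMAD of the BMP branch on chromosome 13, with 2.08, beside 2.22 for RB1 on the same chromosome. Of the SWI/SNF list, 5 of 12 were high in OE33 and 0 after adjustment, against 28.9% and 9.16% of all genes, and SMARCA2, an ATPase of the complex near the end of the short arm of chromosome 9, was the highest in HCC1954 with 2.97. On the same arm CDKN2A had 1.27.

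Of the list of RAS GTPase activating proteins and partners, 2 of 9 genes were low and 3 high in OE33, against 6.81% and 28.9% of all genes. After adjustment for G+C 1 was low and 0 high, against 9.05% and 9.16%. In the LKB1 and TSC list TSC2, which restrains mTORC1, was at 0 in SNU-C1 and HCC1954 and had no reference in the other lines. As at STK11, this is not read as a loss, since a bin without pairs may have been left out before deposit. PRKAA2, a catalytic subunit of AMPK, was the lowest of the lists in OE33 with 0.439, or 0.475 after adjustment. No list of these 6 had more than 4 low genes in any line.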

How the data were processed

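Per the labels and the methods, the authors prepared in situ Hi-C libraries with MboI, aligned reads to hg19 and corrected the maps iteratively. BWA and Picard are named in the submitters' processing notes, with no version, and how bins of low coverage were treated is not stated in the methods or labels. The deposited values are the authors' corrected contact signal for pairs of 40-kb bins. From that signal read pairs were recovered by fitting 1 factor per bin over pairs at least 5 Mb apart in 45 iterations, after which 99.96% of the tested values in SW480, 99.98% in each replicate and 100% in the other lines were whole within 0.02. Coverage, insulation and contacts were computed with Python 3.11.15, NumPy 2.4.6, pandas 2.3.3, SciPy 1.17.1 and numba 0.67.0, and figures were drawn with matplotlib 3.10.9. Recovery of read pairs, a low bin, a contact inside a chromosome and a boundary were checked on simulated maps of 1 chromosome. The other steps were not simulated. Columns of other samples numbered 0.

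Insulation used a 1-Mb window, a delta over 200 kb and a strength of at least 0.1. Bins with at least 0.25 of the median in all 4 lines were used for contacts (64931 bins). Blocks needed 60% of usable bins. Adjustment for G+C divided each value by the median of bins with pairs within 1 percentage point. A bin was given no adjusted value where too few such bins had pairs. Intervals are 95% exact Poisson intervals and cover counting error only.

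The genes and pathway lists were chosen with earlier results of these data known. All 8 genes were named, with the lowest and highest genes of the pathway lists in each line, of which 1 is not reported here, and the bins, boundaries and contacts that passed the limits. Adjustment for G+C, results without STK11, single-bin falls, steps, the same-chromosome comparison of 3 lines and the chromosome 18 edge were chosen after seeing the data.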

Additional observations from a re-analysis of the deposited data

How the results depend on the processing

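With 1 map in 3 of the lines, no difference between lines has a replicate check, and the pooled SW480 map is not independent of its replicates. Low calls, 3 over the member genes, became 6 with all pairs in 3 lines and also 6 with same-chromosome pairs in 3 lines, 5 at less strict limits, 0 where each other line had to pass and 1 without STK11. High calls, 4 at first, became 1 against the chromosome median, 2 where each other line had to pass and 2 without STK11. Bins without pairs, counted once for each line, went from 53 to 2 where they had to be covered in all other lines and to 5 without STK11. Block pairs specific to 1 line on the same chromosome went from 75 to 1 in blocks of 400 kb, 4 with at least 10 read pairs and 287 without iterative correction, and to 99 and 103 without either SW480 replicate, and those with other chromosomes from 231 to 70 in blocks of 2 Mb. The cause was not tested. Shared boundaries ranged from 34 to 53 around 49, and windows with contacts specific to 1 line stayed at 0 under the alternatives run. Leaving out an SW480 replicate left 3 low and 4 high calls, 53 bins, 49 boundaries and 0 windows. No paired analysis was possible because replicate numbers were given for SW480 only and no test between groups was run. Losses much shorter than 40 kb and sparse contacts between distant blocks are beyond this depth.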
